A study of Mus musculus with 12 samples.

Results

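Interferon-stimulated genes were followed in the hippocampus of aged APPswe mice that had received a vector for a lymphatic growth factor, an antibody against amyloid, both or neither. They are 9 genes taken by name, Usp18, Irf7, Ifit1, Ifit3, Oasl2, Iigp1, Bst2, Ifitm3 and Ifi27, and all 9 were found once among the 14881 genes of the deposited count table. The choice was made with earlier results of these data known. Shares of all genes given beside their counts therefore describe scale and are no test of the set. RNA was sequenced from 12 mice, 1 library each, in 4 groups of 3. All were males of 22 to 26 months of the APPswe strain, which is named for a mutant amyloid precursor protein, and no mouse without that strain background or without injections was among them. Each received 5 µL of adeno-associated virus serotype 1 (AAV1) by injection into the cisterna magna, which holds cerebrospinal fluid below the cerebellum, and 40 mg/kg of an immunoglobulin into the abdomen every week. The mVEGF-C+mAdu group (mice 10 to 12) had AAV1-CMV-mVEGF-C, which encodes mouse vascular endothelial growth factor C under the broadly active cytomegalovirus promoter, and mAducanumab (mAdu), which binds aggregated amyloid beta. The mVEGF-C+mIgG group (mice 7 to 9) had the same vector with control immunoglobulin (mIgG). The eGFP+mAdu group (mice 4 to 6) had AAV1-CMV-eGFP, which encodes a green fluorescent protein, with mAdu, and the eGFP+mIgG group (mice 1 to 3) had that vector with mIgG. The design thus asks whether the antibody changes the hippocampal transcriptome under either vector, and whether the vector does so with either immunoglobulin.

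Interferons are secreted cytokines, and cells release those of type I on sensing viral or misplaced nucleic acid. Type I interferons signal through the Ifnar1 and Ifnar2 receptor chains to a transcription factor complex that includes Stat2 and Irf9 and binds the interferon-stimulated response element (ISRE) in promoters, whereas interferon gamma acts through gamma-activated sites (GAS). The induced genes restrict viruses and intracellular parasites, feed back on the pathway and raise antigen presentation. In the brain, microglia, the resident macrophages, express them readily, and a microglial state rich in such transcripts is known from aged brains and from amyloid models.

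The promoter windows below are shown because they hold the letters of the ISRE. The members were chosen as genes that interferon induces, so letters of an element through which interferon acts are no separate support. RefSeq windows on GRCm38.p6, each of 250 bases before to 50 bases after the gene's start, were matched by symbol for 6 of the 9 members: Irf7, Ifit1, Ifit3, Oasl2, Bst2 and Ifitm3. The search used 2 copies of GAAA set 2 bases apart, on either strand, for the ISRE and TTCNNNGAA, which reads the same on both strands, for GAS. The ISRE letters stood in 4 of the 6 windows, 2 matches each, against 3.44% of all 32851 mouse windows in the table and 2.90% of the 14465 windows of genes in the count table. They were also common in related lists, in 7 of 9 windows of interferon gamma-inducible GTPases and 19 of 50 of other antiviral effectors. The 4 windows follow, 5′ to 3′ on the gene's own strand, with the ISRE letters in capitals. They lie at chr19:34640639-34640938 on the plus strand for Ifit1, chr19:34583279-34583578 on the plus strand for Ifit3, chr7:141010695-141010994 on the minus strand for Ifitm3 and chr8:71537423-71537722 on the minus strand for Bst2.
Ifit1: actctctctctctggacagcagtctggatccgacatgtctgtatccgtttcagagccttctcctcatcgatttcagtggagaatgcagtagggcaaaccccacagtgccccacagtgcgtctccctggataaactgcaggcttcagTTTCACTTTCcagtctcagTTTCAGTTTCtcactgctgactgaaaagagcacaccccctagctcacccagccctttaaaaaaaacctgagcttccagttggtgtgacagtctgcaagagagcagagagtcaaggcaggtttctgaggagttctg
Ifit3: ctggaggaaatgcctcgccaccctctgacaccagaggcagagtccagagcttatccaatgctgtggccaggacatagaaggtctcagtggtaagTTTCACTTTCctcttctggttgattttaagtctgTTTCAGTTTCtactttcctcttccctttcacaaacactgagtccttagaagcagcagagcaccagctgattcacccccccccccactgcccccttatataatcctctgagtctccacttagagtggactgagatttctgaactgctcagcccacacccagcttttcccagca
Ifitm3: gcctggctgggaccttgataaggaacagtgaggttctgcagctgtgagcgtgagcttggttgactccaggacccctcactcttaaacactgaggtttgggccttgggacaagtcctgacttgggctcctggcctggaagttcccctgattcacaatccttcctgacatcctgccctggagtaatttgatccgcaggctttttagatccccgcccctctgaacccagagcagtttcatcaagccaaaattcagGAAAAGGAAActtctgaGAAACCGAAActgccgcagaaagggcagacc
Bst2: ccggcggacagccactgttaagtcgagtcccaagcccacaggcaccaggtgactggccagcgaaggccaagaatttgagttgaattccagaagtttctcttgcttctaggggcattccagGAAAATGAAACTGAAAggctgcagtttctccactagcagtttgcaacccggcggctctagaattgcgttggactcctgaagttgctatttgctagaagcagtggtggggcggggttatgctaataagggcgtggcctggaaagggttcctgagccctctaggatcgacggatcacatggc
In Ifit1 and Ifit3 the capitals are the element read on the opposite strand, TTTCACTTTC followed by TTTCAGTTTC in both genes, at bases -104 and -85 from the start of Ifit1 and -156 and -122 from that of Ifit3. In Ifitm3 both matches lay just past the start, at bases 3 and 20, and in Bst2 they overlapped by 4 letters at bases -130 and -124. The GAS letters stood in the windows of Ifitm3 and Bst2, in each overlapping the ISRE letters, against 8.30% of all windows. The windows of Irf7 and Oasl2 held neither run of letters. A match in these windows describes letters and is no evidence of binding.

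The libraries held 23213612 to 29295266 counted reads. Summed markers of hippocampal neurons reached 1417 to 1590 CPM (counts scaled to a common library total) in every library and those of meningeal fibroblasts 69.3 to 161 CPM, which bears on the tissue, since the series description names the hippocampus and the sample source label the meninges. Vegfc itself, to which reads of the vector's mouse sequence could contribute, averaged 2.98 ± 0.407, 2.71 ± 0.825, 3.29 ± 0.188 and 3.41 ± 0.188 CPM (SD, n = 3 each) in mVEGF-C+mAdu, mVEGF-C+mIgG, eGFP+mAdu and eGFP+mIgG mice and passed in no comparison (edgeR adjusted p 0.349 or higher). In each group 1 library lay between the other 2 in most genes that varied beyond counting (chi-square p under 0.01). These were the libraries of mice 12, 9, 6 and 3, in 77.6%, 72.9%, 72.4% and 76.4% of such genes. The labels give each library as 1 mouse. If these 4 libraries were not independent of the others, the SDs and p-values here would understate the spread, which was not tested. Tests are given with and without them, and group means, counts of overlap, correlations and marker sums include them. Over the 9 interferon-stimulated genes they lay in the middle of their group in 1, 6, 4 and 2 genes.

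CPM here are scaled to the library total after TMM normalisation. Per kilobase of exon, the 9 genes spanned a wide range of mean level over the 12 libraries, with Ifi27 at 23.7 CPM per kb, Ifitm3 at 9.08, Ifit3 at 5.56, Bst2 at 2.78, Ifit1 at 1.30, Oasl2 at 0.467, Iigp1 at 0.414, Irf7 at 0.392 and Usp18 at 0.354. The last 4 differed in mean by less than the range of each over the libraries. Reads behind a value ran from 10 for Usp18 in mice 11 and 12 to 1058 for Ifi27 in mouse 5. Counting precision was therefore lowest for Usp18. Exact 95% Poisson intervals given below cover counting error only.

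Usp18 and Irf7 act on the pathway itself. Usp18 removes the ubiquitin-like Isg15 from proteins and damps signalling at the type I receptor. It lies on chromosome 6 at 121245906 to 121270917 (GRCm38, plus strand) and overlaps the gene Gm44148 on the other strand. Usp18 had 0.461, 0.404 and 0.402 CPM in mVEGF-C+mAdu mice, 1.26, 2.11 and 1.75 CPM in mVEGF-C+mIgG mice, 0.693, 1.03 and 1.01 CPM in eGFP+mAdu mice, and 0.690, 1.35 and 0.688 CPM in eGFP+mIgG mice. The 3 mice with both treatments were thus the lowest of all 12, and mice 8 and 9 the highest 2. Irf7, a transcription factor that amplifies type I interferon production, lies on chromosome 7 at 141262706 to 141266481 (minus strand) and overlaps Phrf1 on the other strand. It had 0.845, 0.930 and 0.644 CPM in mVEGF-C+mAdu mice, 1.39, 2.19 and 2.48 CPM in mVEGF-C+mIgG mice, 1.42, 1.95 and 1.74 CPM in eGFP+mAdu mice, and 1.38, 1.35 and 1.45 CPM in eGFP+mIgG mice. Mouse 7 lay among the eGFP mice for both genes, and mice 8 and 9 above them. Reads of either gene and of the overlapping partner cannot be told apart if counting ignored strand, which is not given in the sources used here.

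Ifit1 and Ifit3 are neighbouring genes on chromosome 19 (34640871 to 34650009 and 34583531 to 34588731, plus strand) for tetratricopeptide repeat proteins that act against viral RNA. Ifit1 had 1.54, 2.47 and 2.58 CPM in mVEGF-C+mAdu mice, 3.14, 7.39 and 5.64 CPM in mVEGF-C+mIgG mice, 3.19, 3.24 and 3.29 CPM in eGFP+mAdu mice, and 2.98, 3.35 and 2.79 CPM in eGFP+mIgG mice. Ifit3 had 5.76, 7.28 and 6.20 CPM in mVEGF-C+mAdu mice, 10.3, 17.3 and 14.0 CPM in mVEGF-C+mIgG mice, 7.97, 9.91 and 10.0 CPM in eGFP+mAdu mice, and 9.11, 9.72 and 8.88 CPM in eGFP+mIgG mice. For both genes the 6 eGFP libraries lay close together, the 3 combined libraries below them, and mice 8 and 9 well above. Ifit3 and its neighbour Ifit3b share 99.09% of their longest open reading frame, so how the authors' counting divided their reads is uncertain. Ifit1 and Ifit1bl1 share 75.73%.

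Oasl2, of the oligoadenylate synthetase family that senses double-stranded RNA, lies on chromosome 5 at 114896936 to 114912234 (plus strand). It had 1.88, 1.50 and 2.21 CPM in mVEGF-C+mAdu mice, 3.18, 6.24 and 3.62 CPM in mVEGF-C+mIgG mice, 1.94, 3.32 and 3.12 CPM in eGFP+mAdu mice, and 2.43, 3.77 and 2.51 CPM in eGFP+mIgG mice. Mouse 8 stood alone at the top, and mouse 4 of the eGFP+mAdu group lay within the range of the combined mice. Iigp1, an immunity-related GTPase that attacks the vacuoles of intracellular parasites, lies on chromosome 18 at 60376027 to 60392634 (plus strand). It had 1.42, 1.46 and 1.49 CPM in mVEGF-C+mAdu mice, 2.49, 4.29 and 4.16 CPM in mVEGF-C+mIgG mice, 2.42, 2.14 and 2.68 CPM in eGFP+mAdu mice, and 2.07, 2.32 and 2.00 CPM in eGFP+mIgG mice. The 3 combined mice were almost level for Iigp1, whereas mouse 7 lay within the eGFP range and far from mice 8 and 9.

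Bst2, or tetherin, holds budding virions at the cell surface and lies on chromosome 8 at 71534255 to 71537456 (minus strand). It had 1.96, 2.34 and 1.81 CPM in mVEGF-C+mAdu mice, 2.32, 3.34 and 3.43 CPM in mVEGF-C+mIgG mice, 2.32, 3.46 and 2.11 CPM in eGFP+mAdu mice, and 2.00, 2.32 and 2.72 CPM in eGFP+mIgG mice. The groups overlapped for this gene, and its highest library was that of mouse 5 with the eGFP vector. Ifitm3, a membrane protein that blocks the fusion of viruses inside endosomes, lies on chromosome 7 at 141009586 to 141010770 (minus strand). Ifitm3 had 4.34, 4.61 and 4.23 CPM in mVEGF-C+mAdu mice, 4.81, 7.75 and 6.98 CPM in mVEGF-C+mIgG mice, 6.58, 7.55 and 6.41 CPM in eGFP+mAdu mice, and 6.03, 7.39 and 7.23 CPM in eGFP+mIgG mice. Here mouse 7 sat near the combined mice and below all 6 eGFP mice, though its Poisson interval overlapped those of mice 1, 4 and 6. Ifi27, an interferon-inducible gene on chromosome 12 (103434211 to 103440239, plus strand), was by far the highest. It had 29.2, 30.8 and 32.2 CPM in mVEGF-C+mAdu mice, 38.7, 35.4 and 39.5 CPM in mVEGF-C+mIgG mice, 33.0, 39.0 and 33.7 CPM in eGFP+mAdu mice, and 35.2, 35.0 and 35.8 CPM in eGFP+mIgG mice. Its combined libraries were again the lowest 3, but its whole range was narrow and mouse 7 stood with mouse 9 near the top.

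**Figure D1:**
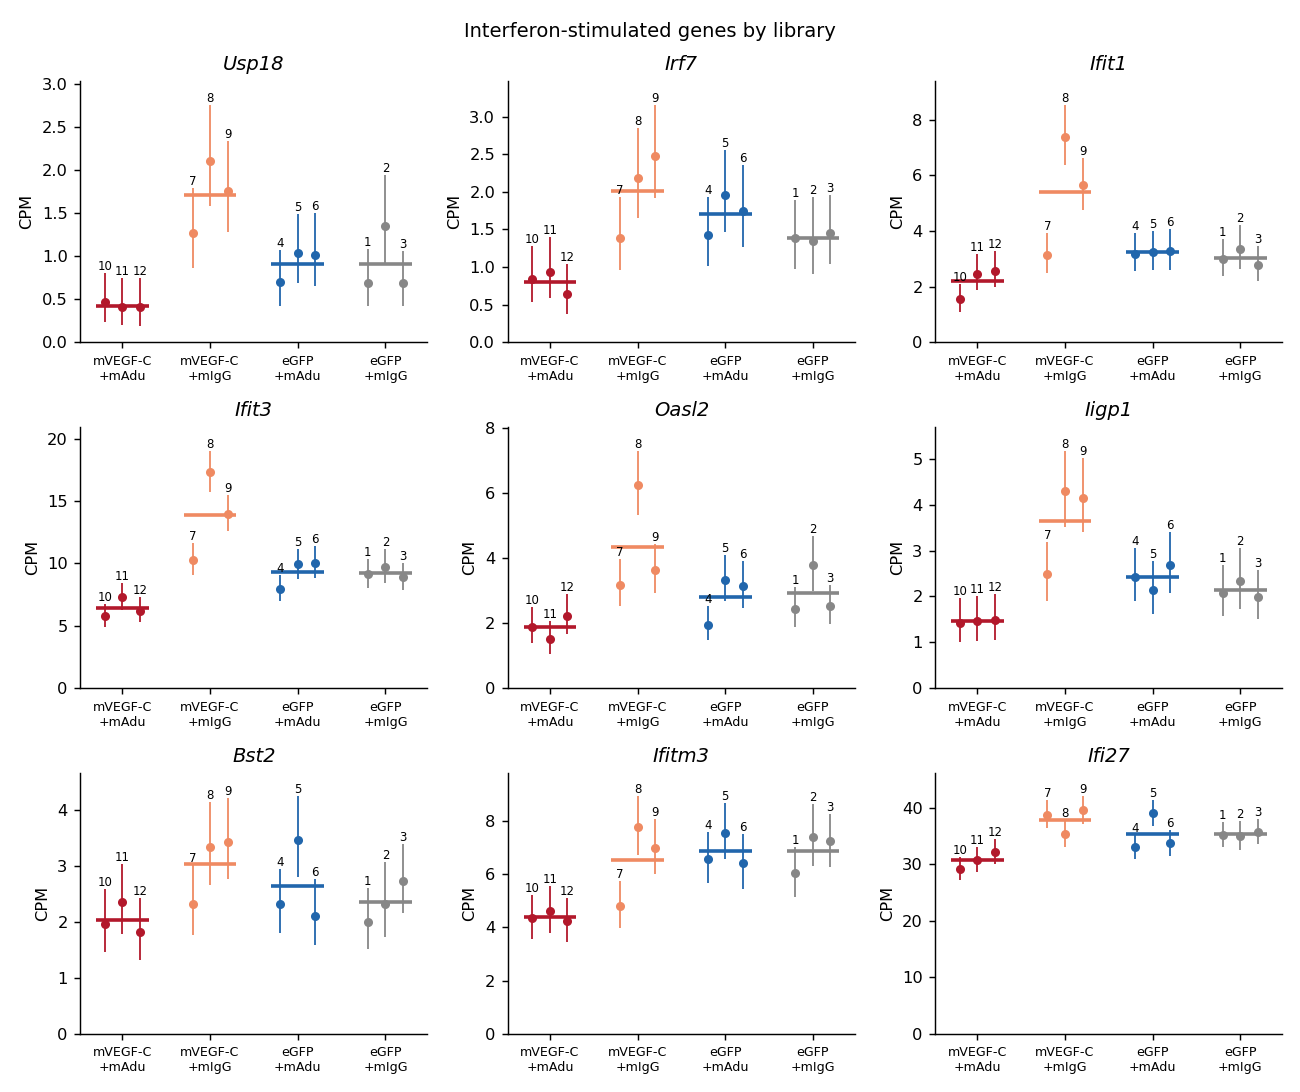
CPM of the 9 interferon-stimulated genes (y axis, from 0) in the 12 libraries by group (x axis), with points for libraries numbered by mouse, exact 95% Poisson intervals as error bars (counting error only) and a line at each group mean. Mice 10, 11 and 12 lay below the other 9 libraries in 7 genes, and mice 8 and 9 above the 9 libraries of the other groups in 5.

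Counted over the members, the 3 mVEGF-C+mAdu libraries were below all 9 other libraries in 7 of 9 genes, the exceptions being Oasl2 and Bst2, and the same held for 2.18% of all genes. Mice 8 and 9 were above the 9 libraries of the other 3 groups in 5 genes, Usp18, Irf7, Ifit1, Ifit3 and Iigp1, as were 2.99% of all genes. This pair was set apart from mouse 7 with the members' values known, so the share is no test. Mouse 8 had the highest value of all 12 in 6 members, mouse 9 in Irf7 and Ifi27, and mouse 5 in Bst2. The mean over the 9 members of log2 CPM, after subtracting from every gene its 12-library mean, was -0.60, -0.48 and -0.54 in mVEGF-C+mAdu mice, 0.08, 0.75 and 0.58 in mVEGF-C+mIgG mice, -0.10, 0.22 and 0.10 in eGFP+mAdu mice, and -0.11, 0.15 and -0.04 in eGFP+mIgG mice. On this scale the spread within the mVEGF-C+mIgG group (SD 0.35) was larger than that within the mVEGF-C+mAdu (0.060), eGFP+mAdu (0.16) and eGFP+mIgG (0.14) groups. The members followed each other across libraries. The Pearson r of each with the mean of the other 8 over the 12 libraries ran from 0.744 for Ifi27 to 0.973 for Ifit3, a description of genes that share the same libraries.

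With the mVEGF-C vector, the antibody went with lower interferon-stimulated genes. In mVEGF-C+mAdu against mVEGF-C+mIgG mice 5 of the 9 members fell and 0 rose, where 0.141% of all genes fell, at an adjusted p under 0.05 in edgeR's quasi-likelihood test (Benjamini-Hochberg method, 14881 genes). Usp18 averaged 0.423 ± 0.0332 CPM in mVEGF-C+mAdu mice and 1.71 ± 0.424 CPM in mVEGF-C+mIgG mice (SD, n = 3 each), and fell by 2.00 on the log2 scale (SE 0.311, edgeR adjusted p = 0.0228). Iigp1 fell to 1.46 ± 0.0340 CPM, against 3.64 ± 1.01 CPM in mVEGF-C+mIgG mice (log2 -1.33, SE 0.199, edgeR adjusted p = 0.0228). Irf7 fell to 0.806 ± 0.147 CPM, against 2.02 ± 0.566 CPM in mVEGF-C+mIgG mice (log2 -1.32, SE 0.239, edgeR adjusted p = 0.0377). Ifit1 and Ifit3 fell together. Ifit1 averaged 2.19 ± 0.571 CPM in mVEGF-C+mAdu mice and 5.39 ± 2.14 CPM in mVEGF-C+mIgG mice (log2 -1.30, SE 0.250, edgeR adjusted p = 0.0482), and Ifit3 6.41 ± 0.780 and 13.9 ± 3.53 CPM (log2 -1.11, SE 0.157, edgeR adjusted p = 0.0145). The other 4 did not pass: the log2 difference was -1.22 for Oasl2 (edgeR adjusted p = 0.0740), -0.30 for Ifi27 (0.0633), -0.57 for Ifitm3 (0.129) and -0.58 for Bst2 (0.259). In bulk tissue, fewer cells expressing a gene and less of its RNA per cell cannot be told apart. All 9 differences were negative, with a median of -1.22 beside 0.00 over all genes, and the libraries of the groups did not overlap in 8 members (8.12% of all genes), Bst2 being the exception.

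These calls depended on the libraries in the fit. Without mice 3, 6, 9 and 12, 0 of the 9 members passed by edgeR (lowest adjusted p 0.997), while the log2 differences stayed between -1.95 and -0.31. With 1 mouse left out at a time, 0 members passed without mouse 9, 10 or 12, 1 (Ifit3) without mouse 11, 2 (Ifit3 and Iigp1) without mouse 6, and 3 (Ifit3, Iigp1 and Usp18) without mouse 3 or 8. The count was 4 without mouse 1, 2 or 4, in each case without Ifit1, 6 without mouse 5, with Ifi27 added, and 7 without mouse 7, with Ifitm3 and Oasl2 added. In each of these refits all 9 differences remained negative. The DESeq2 Wald test passed 7 members (0.504% of all genes fell), limma-voom with quality weights passed all 9 (4.25%), and a fit of these 2 groups alone passed Usp18.

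**Figure D2:**
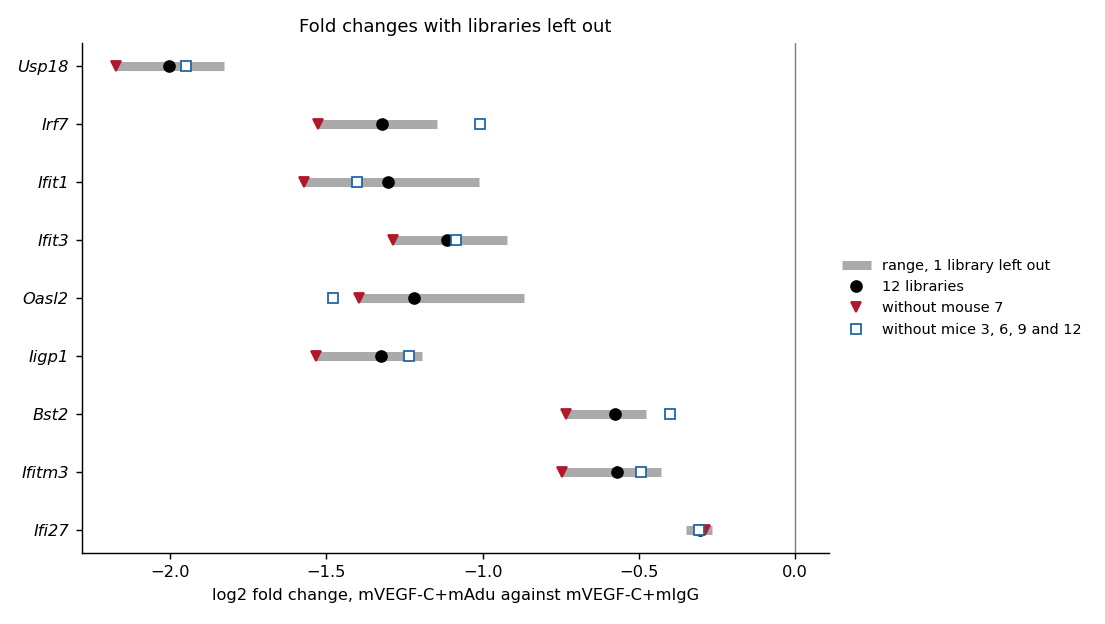
Log2 fold change of each gene (x axis) in mVEGF-C+mAdu against mVEGF-C+mIgG mice, with black circles for all 12 libraries, grey bars for the range over the 12 fits with 1 library left out, red triangles for the fit without mouse 7 and open blue squares for the fit without mice 3, 6, 9 and 12. Every value is below 0, and the fit without mouse 7 gave the most negative value of those with 1 library left out in 8 of the 9 genes, Ifi27 being the exception.

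With the control vector the differences lay around 0. In eGFP+mAdu against eGFP+mIgG mice 0 of 9 members passed by edgeR, where 0.0134% of all genes fell and 0.0202% rose. No member had an unadjusted p under 0.05, which 5.03% of all genes had with a lower and 4.19% with a higher value, and none passed with DESeq2 (0.188% of all genes fell and 0.128% rose) or limma-voom (1.9% fell and 1.51% rose). The log2 differences ran from -0.04 for Oasl2 to 0.29 for Irf7, with a median of 0.05, 6 positive and 3 negative, and the libraries of the groups overlapped in all 9 (7.78% of all genes did not overlap and were lower, 7.63% higher). The 95% intervals, from the SE and the degrees of freedom of the fit, bound these differences: -0.32 to 0.34 for Ifit3, -0.43 to 0.63 for Ifit1, -0.23 to 0.60 for Iigp1, -0.18 to 0.75 for Irf7, -0.59 to 0.68 for Usp18 and -0.14 to 0.14 for Ifi27. The point estimates with the mVEGF-C vector lie outside these intervals for each of the genes just listed. That comparison leaves out the spread of those estimates, so it is no test of a difference between vectors.

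Whether the antibody difference itself differed between vectors was tested as an interaction. It was negative in all 9 members, with a median of -1.18 on the log2 scale beside 0.00 over all genes, and had an unadjusted p under 0.05 in 9 of 9, as did 3.51% of all genes in that direction. None passed edgeR's adjustment over all genes, in which 0.00672% of genes passed in that direction. The lowest adjusted p was 0.161, for Iigp1 (log2 -1.51, SE 0.280), followed by 0.219 for Ifit3 (-1.12, SE 0.220), 0.269 for Irf7 (-1.61, SE 0.326), 0.322 for Usp18 (-2.05, SE 0.438) and 0.408 for Ifit1 (-1.40, SE 0.355). Ifit3 and Iigp1 passed with DESeq2 (0.047% of all genes in that direction) and 5 members with limma-voom (0.833%). Without mouse 7, Ifit1, Ifit3, Iigp1, Irf7 and Usp18 passed by edgeR (lowest adjusted p 0.00631), and with any other mouse left out 0 passed.

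**Figure D3:**
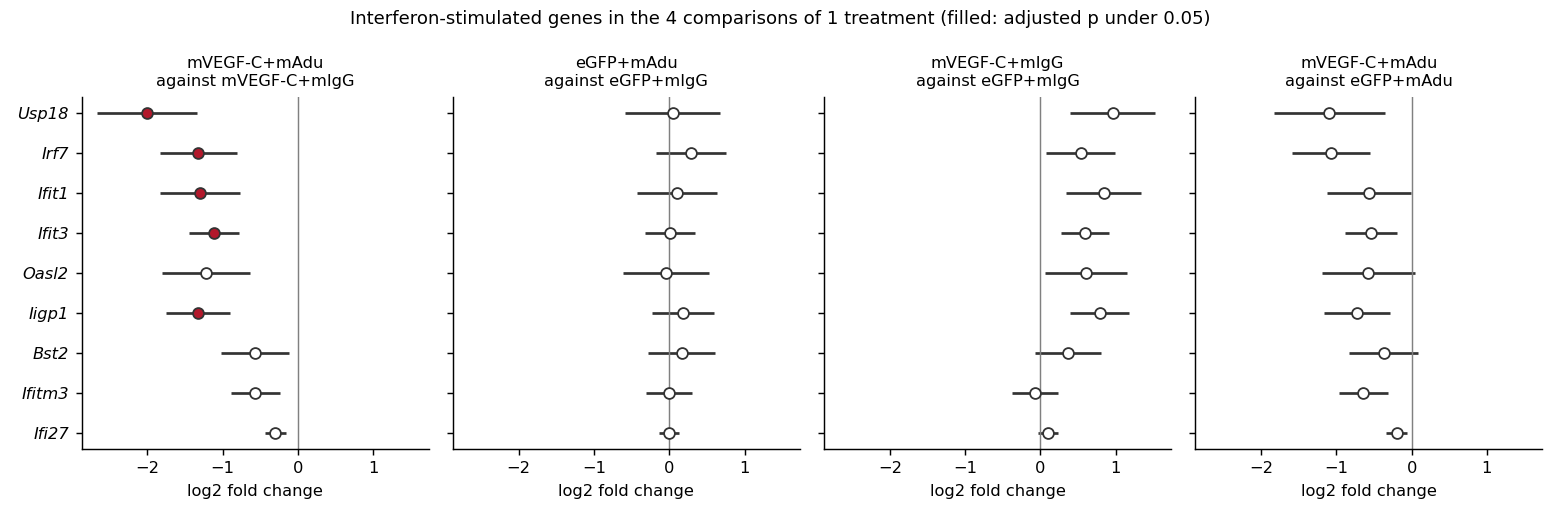
Log2 fold change (x axis) of the 9 interferon-stimulated genes with 95% intervals from the edgeR fit, in the 4 comparisons of 1 treatment, filled where the adjusted p is under 0.05. The 5 filled points are in mVEGF-C+mAdu against mVEGF-C+mIgG mice, the eGFP values lie around 0, and the 2 comparisons of vectors point to opposite sides in every gene but Ifitm3, which is negative in both.

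The vector was compared under each immunoglobulin. In mVEGF-C+mIgG against eGFP+mIgG mice 0 of 9 members passed by edgeR (0.0269% of all genes rose). The differences were positive in 8, with a median of 0.59, and had an unadjusted p under 0.05 in 6 (3.69% of all genes in that direction). Usp18 stood at 0.96 (SE 0.268), Ifit1 at 0.84 (SE 0.236), Iigp1 at 0.78 (SE 0.186) and Ifit3 at 0.59 (SE 0.149) on the log2 scale, with edgeR adjusted p of 0.299 to 0.482. The groups did not overlap in Ifit3 and Iigp1, with 6.38% of all genes in that direction. With DESeq2 0 passed (0.0739% of all genes fell and 0.0605% rose) and with limma-voom 5 (2.67% rose). The calls turned on mouse 7: without it Ifit1, Ifit3 and Iigp1 passed by edgeR, and with any other mouse left out 0 did.

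In mVEGF-C+mAdu against eGFP+mAdu mice all 9 differences were negative, with a median of -0.57, and 0 passed by edgeR (0.0202% of all genes fell). The unadjusted p was under 0.05 in 7 members (6.81% of all genes in that direction). Irf7 had the lowest edgeR adjusted p, 0.0961 (log2 -1.07, SE 0.244), and Ifitm3 the next, 0.100 (-0.64, SE 0.151). The groups did not overlap in 7 members, all but Bst2 and Oasl2, and in 10.2% of all genes in that direction. Ifitm3 passed with DESeq2 (0.37% of all genes) and in a fit of these 2 groups alone, 5 members passed with limma-voom (3.21%), and Ifitm3 and Irf7 passed without mouse 7.

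The combined treatment was compared with the double control, mVEGF-C+mAdu against eGFP+mIgG mice. Ifitm3 fell to 4.39 ± 0.196 CPM, against 6.88 ± 0.744 CPM in eGFP+mIgG mice (SD, n = 3 each, log2 -0.64, SE 0.152, edgeR adjusted p = 0.0395). It was 1 of 9 members to pass, where 0.988% of all genes fell. The call held without mouse 4, 5, 7 or 8 and was lost without any of the other 8, or without mice 3, 6, 9 and 12 together. Markers of several other cell types were lower in this comparison too, and those of others were mixed. Choroid plexus markers summed to 50.6 to 51.2 CPM in mVEGF-C+mAdu mice and 67.8 to 112 CPM in eGFP+mIgG mice (9 of 10 negative, median -0.41), and Ttr among them fell (log2 -1.62, edgeR adjusted p = 0.00895), a call lost without mouse 12 and without mice 3, 6, 9 and 12 together. All 6 ependymal markers were negative (median -0.57), as were 9 of 10 of meningeal fibroblasts (median -0.52), all 3 of border-associated macrophages (median -0.64) and 11 of 12 of homeostatic microglia (median -0.10). Of 10 markers of disease-associated microglia 6 were lower and 0 higher at an unadjusted p under 0.05 by edgeR, where 10% of all genes were lower. By that measure 1 of 9 endothelial markers was lower and 2 higher, 2 of 8 astrocyte markers lower and 1 higher, and 1 of 9 hippocampal neuron markers lower. Foxj1 of ependyma, Aldh1l1 of astrocytes and Vwf of endothelium also fell at an edgeR adjusted p under 0.05. Each of these calls was lost in some refit. The part of these cell types in the difference of Ifitm3 was not tested. All 9 differences of the members were negative, with a median of -0.54. The groups did not overlap in 8 members, all but Bst2, and in 13.4% of all genes in that direction. With DESeq2 2 members passed (1.36% of all genes fell) and with limma-voom 5 (8.74%). Usp18 stood at -1.05 (SE 0.351, edgeR adjusted p = 0.113) and Irf7 at -0.79 (SE 0.254, edgeR adjusted p = 0.102).

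Averaged over both vectors, mAdu mice had lower Ifit3 than mIgG mice (log2 -0.55, SE 0.110, edgeR adjusted p = 0.0383), the 1 member to pass where 0.316% of all genes fell. An unadjusted p under 0.05 and a negative value stood in 8 members, all but Bst2, and in 8.18% of all genes. With DESeq2 2 members passed (0.82% of all genes fell) and with limma-voom 8 (5.8%). The Ifit3 call was lost without mouse 1, 2, 3, 4, 6, 9, 10 or 12, and without mice 3, 6, 9 and 12 together. H2-K1, a class I heavy chain, fell in this average too (log2 -0.41, edgeR adjusted p = 0.0383), a call lost without the same mice and also without mouse 11. For Ifit3 the average joins a difference of -1.11 with the mVEGF-C vector and one of 0.01 with the eGFP vector. Averaged over both immunoglobulins, mVEGF-C mice differed from eGFP mice in 0 members by edgeR (0.141% of all genes fell and 0.249% rose) and in 0 with DESeq2 (0.457% fell and 0.585% rose). Ifitm3 alone had an unadjusted p under 0.05 in that average, as did 7.54% of all genes with a lower value (log2 -0.36, SE 0.105, edgeR adjusted p = 0.129) and passed with limma-voom (6.07% of all genes fell). This average joins comparisons that pointed in opposite directions for 8 of the 9 members, and the comparisons given here share groups.

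Mouse 7 lay apart from one or both of its group mates in 5 members. Its exact 95% Poisson interval lay below that of mouse 8 in Ifit1, Ifit3, Iigp1, Ifitm3 and Oasl2, and below that of mouse 9 in the first 4 of these. Ifit1 had an upper bound of 3.92 CPM in mouse 7 and lower bounds of 6.37 and 4.77 CPM in mice 8 and 9. For Ifit3 these were 11.6 CPM in mouse 7 and 15.7 and 12.6 CPM in mice 8 and 9. Over the 6 eGFP mice the means were 3.14 CPM for Ifit1, 9.27 for Ifit3, 2.27 for Iigp1 and 1.55 for Irf7, beside 3.14, 10.3, 2.49 and 1.39 CPM in mouse 7 alone. In Usp18, Irf7, Bst2 and Ifi27 the interval of mouse 7 overlapped those of both mates. Mouse 7 lay within the range of the 6 eGFP mice for Ifit1, Iigp1 and Irf7, and just above its upper end, 10.0 CPM, for Ifit3.

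The rest of the interferon pathway was read in the comparison in which members fell, mVEGF-C+mAdu against mVEGF-C+mIgG. Of 21 interferon genes listed, none has a row in the count table, and they are not analysed here. Of 6 receptor genes 5 were measured and 0 passed by edgeR, with 0 at an unadjusted p under 0.05, 0 with DESeq2, 0 with limma-voom and a median log2 difference of 0.04. Ifnar1, the signalling chain of the type I receptor, averaged 46.3 ± 2.13 CPM in mVEGF-C+mAdu mice and 45.1 ± 2.10 CPM in mVEGF-C+mIgG mice. The receptor genes were thus close to level where their target genes were not. Of 13 JAK-STAT genes 0 passed by edgeR or DESeq2 and 1 by limma-voom, with 2 lower at an unadjusted p under 0.05 and a median of -0.10. Stat2 stood at -0.15 (SE 0.0783), Irf9 at -0.32 (SE 0.138) and Socs1, a feedback inhibitor, at -1.02 (SE 0.243, edgeR adjusted p = 0.0965). Of 21 genes for sensing nucleic acid 18 were measured and 0 passed by edgeR or DESeq2 and 2 by limma-voom, with 4 lower at an unadjusted p under 0.05 and a median of -0.19. Beside these counts, 6.69% of all genes were lower at an unadjusted p under 0.05 by edgeR, and 4.25% fell with limma-voom.

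Further antiviral effectors differed mostly in the same direction, and 2 of them passed. Of 60 listed, 40 were measured, 2 fell by edgeR (0.141% of all genes) and 36 had a negative value (median -0.31). At an unadjusted p under 0.05, 20 were lower, and 4 passed with DESeq2 and 14 with limma-voom. Lgals3bp, a secreted glycoprotein that binds galectins, fell to 6.68 ± 0.903 CPM in mVEGF-C+mAdu mice, against 12.2 ± 2.42 CPM in mVEGF-C+mIgG mice (log2 -0.87, SE 0.141, edgeR adjusted p = 0.0228). Ifit3b, the near copy of Ifit3, fell to 3.58 ± 0.191 CPM, against 6.98 ± 1.40 CPM (log2 -0.96, SE 0.172, edgeR adjusted p = 0.0374). Not every relative of a member moved to the same degree: Ifit2 stood at -0.20 (SE 0.0914) and Ifitm2 at -0.14 (SE 0.161). Both did not pass by edgeR with all 12 libraries, though Ifit2 passed in an alternative fit. Rsad2, known as viperin, stood at -1.11 (SE 0.225, edgeR adjusted p = 0.0599). Of 17 interferon gamma-inducible GTPases, the family of Iigp1 and the guanylate-binding proteins, 10 were measured, 0 passed by edgeR, 2 by DESeq2 and 8 by limma-voom. All 10 were negative with an unadjusted p under 0.05 (6.69% of all genes in that direction), and the median was -0.69. Gbp9 was nearest to the threshold (log2 -0.76, SE 0.163, edgeR adjusted p = 0.0616).

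Genes that load and present peptides on class I molecules fell in part. Of 19 listed, 18 were measured, 2 fell by edgeR (0.141% of all genes) and 16 were negative (median -0.42). At an unadjusted p under 0.05, 12 were lower (6.69% of all genes), and 6 passed with DESeq2 and 7 with limma-voom. H2-K1, a class I heavy chain, had 18.0, 20.2 and 19.4 CPM in mVEGF-C+mAdu mice and 24.3, 36.5 and 32.9 CPM in mVEGF-C+mIgG mice (log2 -0.70, SE 0.116, edgeR adjusted p = 0.0228). H2-D1, another heavy chain, had 31.4, 34.4 and 32.2 CPM in mVEGF-C+mAdu mice and 40.6, 67.5 and 56.5 CPM in mVEGF-C+mIgG mice (log2 -0.75, SE 0.141, edgeR adjusted p = 0.0429). Mouse 7 was again the lowest of its group for both. These 2 genes are close paralogs, so the division of reads between them is uncertain. The 4 calls of Lgals3bp, Ifit3b, H2-K1 and H2-D1 were lost without mouse 6, 9, 10, 11 or 12, without mice 3, 6, 9 and 12 together and in a fit of the 2 groups alone, those of Ifit3b and H2-D1 also without mouse 8, and that of H2-D1 also without mouse 3. Of 8 interferon-induced chemokines 2 were measured and 0 passed by edgeR or DESeq2 and 1 by limma-voom, with both lower at an unadjusted p under 0.05. Cxcl10 had 0.192, 0.606 and 0.161 CPM in mVEGF-C+mAdu mice and 0.815, 0.994 and 0.762 CPM in mVEGF-C+mIgG mice. In mVEGF-C+mAdu against eGFP+mIgG mice Lgals3bp (log2 -0.65, edgeR adjusted p = 0.0320), H2-K1 (-0.50, edgeR adjusted p = 0.0395) and the immunoproteasome subunit Psmb9 (-0.84, edgeR adjusted p = 0.0413) fell. Each of these calls was lost without mouse 1, 3, 6, 9, 10, 11 or 12 and without mice 3, 6, 9 and 12 together. Those of H2-K1 and Psmb9 were also lost without mouse 2.

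**Figure D4:**
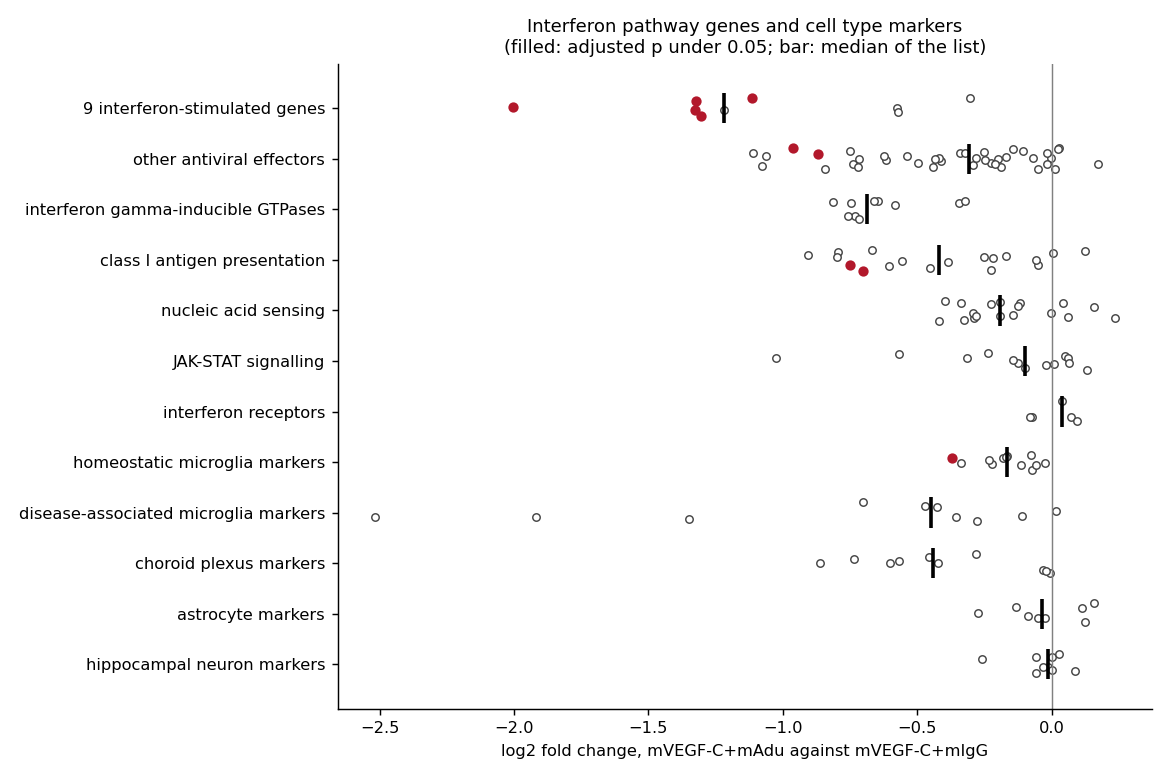
Log2 fold change (x axis) in mVEGF-C+mAdu against mVEGF-C+mIgG mice for each measured gene of the interferon pathway lists and of cell type marker lists (rows), filled where the edgeR adjusted p is under 0.05, with a bar at the list median. The median is -1.22 for the 9 interferon-stimulated genes, -0.69 for the gamma-inducible GTPases, -0.42 for class I presentation and 0.04 for the receptors.

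Microglial markers were also lower, and 1 of them passed. In the same comparison all 12 homeostatic microglia markers were negative (median -0.17). Olfml3 fell (log2 -0.37, SE 0.0640, edgeR adjusted p = 0.0299). This call was lost without mouse 3, 6, 9, 10, 11 or 12, without mice 3, 6, 9 and 12 together and in a fit of the 2 groups alone. The 6 markers with an unadjusted p under 0.05 were all lower, beside 6.69% of all genes in that direction. The summed level of the 12 markers was 477 to 490 CPM in mVEGF-C+mAdu mice and 531 to 560 CPM in mVEGF-C+mIgG mice. Of 12 markers of disease-associated microglia, a state found around amyloid plaques, 10 were measured and 9 were negative (median -0.45). None passed by edgeR, and 7 were lower at an unadjusted p under 0.05. With DESeq2 4 passed (0.504% of all genes fell) and with limma-voom 6 (4.25%). Their summed level was 139 to 148 CPM in mVEGF-C+mAdu mice and 155 to 196 CPM in mVEGF-C+mIgG mice. Cst7, a cystatin of that state, had 0.192, 0.202 and 0.242 CPM in mVEGF-C+mAdu mice and 0.367, 1.91 and 1.41 CPM in mVEGF-C+mIgG mice (log2 -2.52, SE 0.601, edgeR adjusted p = 0.0968). Itgax, an integrin chain, had 0.423, 0.445 and 0.604 CPM in mVEGF-C+mAdu mice and 0.693, 2.78 and 2.10 CPM in mVEGF-C+mIgG mice (log2 -1.92, SE 0.455, edgeR adjusted p = 0.0965). Mouse 7 was the lowest of its group for both of these genes. The part of microglial number or state in the members' differences was not tested.

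Other cell types were less uniform. Of 13 markers of T and NK cells 2 were measured, Lck and Trbc2, with a summed level of 1.34 to 1.54 CPM in mVEGF-C+mAdu mice and 2.04 to 3.14 CPM in mVEGF-C+mIgG mice, while the remaining 11, among them Cd3e and Cd8a, are not analysed here. The 10 measured choroid plexus markers were all negative (median -0.44), at 50.6 to 51.2 CPM in mVEGF-C+mAdu mice and 58.3 to 66.1 CPM in mVEGF-C+mIgG mice, and so were the 6 measured ependymal markers (median -0.41). The 3 measured markers of border-associated macrophages gave 6.39 to 7.26 CPM in mVEGF-C+mAdu mice and 6.03 to 6.67 CPM in mVEGF-C+mIgG mice. Medians of the endothelial, astrocyte and hippocampal neuron markers were -0.03, -0.04 and -0.01. Astrocyte markers moved both ways: 2 of 8 were higher and 2 lower at an unadjusted p under 0.05 by edgeR, and 5 passed with limma-voom. By that edgeR measure 0 of 9 endothelial and 1 of 9 hippocampal neuron markers were lower, and 0 of either higher. So were 5 of 6 ependymal, 4 of 10 choroid plexus and 2 of 2 T and NK cell markers lower, beside 6.69% of all genes. The part of these cell types in the members' differences was not tested.

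The 8 genes whose pattern over the 12 libraries was most like that of the members were picked by rank. Among 12950 genes outside every list with a mean of at least 1 CPM, the Pearson r with the members' mean level was highest for Fcgr2b (0.960), the inhibitory receptor for immunoglobulin G. It was followed by the lysosomal protease Ctsh (0.951), Ptprc, which encodes the leukocyte antigen CD45 (0.946), the complement subunits C1qc (0.937) and C1qa (0.936), Sspo, a secreted protein of the subcommissural organ (0.935), Bin2 (0.931) and Klhl6 (0.930). Fcgr2b averaged 2.13 ± 0.154, 3.28 ± 0.567, 2.82 ± 0.406 and 2.84 ± 0.186 CPM in mVEGF-C+mAdu, mVEGF-C+mIgG, eGFP+mAdu and eGFP+mIgG mice. C1qa averaged 49.1 ± 2.75, 71.8 ± 10.4, 62.8 ± 9.32 and 66.3 ± 4.70 CPM in these groups. Both were thus lowest with the combined treatment and highest in mVEGF-C+mIgG mice. These likenesses describe 12 libraries that share their groups and were chosen as the highest of many.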

How the data were processed

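Hippocampal RNA from 12 mice was sequenced, 1 library per mouse. The deposited values are whole-number counts of reads per gene, which the authors made, per the submitters' processing notes, with FastQC, Trim Galore, STAR and featureCounts of Subread on mm10; edgeR is named there too. The sources used here do not give versions, annotation or strand setting. All 14881 genes were kept (the lowest total was 147 reads, and edgeR's filter removed 0). Groups followed the labels. The labels give 1 mouse per library and no batch, and p-values measure the spread between these libraries.

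Counts were fitted with edgeR 4.0.16 (R 4.3.3; TMM, quasi-likelihood, 1 mean per group, all 12 libraries). There were 8 comparisons, adjusted by Benjamini-Hochberg over all genes at 0.05. SE and 95% intervals came from the F statistic and the degrees of freedom. The fit was also run on simulated counts drawn independently for each library. That run cannot bear on whether libraries 3, 6, 9 and 12 are independent of the others. Alternatives were DESeq2 1.42.0, its size factors, limma 3.58.1 voom with quality weights, no filter, only the groups compared, each library left out, and libraries 3, 6, 9 and 12 left out. The 9 genes and all lists were chosen with earlier results of these data known, so their counts beside shares of all genes are description and no test. Named by rule were the 9 genes, up to 4 passing genes per pathway list and comparison, and the 8 genes outside every list most like the members (log2 CPM, prior count 2). Ifnar1, Stat2, Irf9, Socs1, Rsad2, Ifit2, Ifitm2, Gbp9, Cxcl10, Cst7, Itgax and Ttr were named after their values were seen. Gene coordinates follow GENCODE M21 on GRCm38.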

Additional observations from a re-analysis of the deposited data

Results flagged for a closer look

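For 7 of the 9 members, and for 10.4% of all genes, the mice of one background all lay on one side of the comparison group's mean and those of the other background all on the opposite side. The value given is the interaction on the log2 scale, the antibody difference with the mVEGF-C vector minus that with the eGFP vector, which equals the vector difference with mAdu minus that with mIgG. For the antibody difference this held in 6.93% of all genes and in Ifit1 (-1.40), Irf7 (-1.61) and Iigp1 (-1.51). For the vector difference it held in 5.52% of all genes and in Ifit1 (-1.40), Ifit3 (-1.12), Usp18 (-2.05), Iigp1 (-1.51), Oasl2 (-1.18) and Ifi27 (-0.30). By edgeR none of these interactions passed after adjustment over all genes, with adjusted p of 0.161 for Iigp1 to 0.630 for Oasl2. Their cause was not tested.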

How the results depend on the processing

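In mVEGF-C+mAdu against mVEGF-C+mIgG mice, 9 members passed with limma-voom, 1 with only the groups compared and 0 without libraries 3, 6, 9 and 12 (5 in the edgeR fit of all libraries). All genes that passed numbered 126 with DESeq2, 1234 with limma-voom, 6 with only the groups compared and 0 without those 4 libraries (31 in the full fit), and P2ry12 turned to 0.0010 without them. In eGFP+mAdu against eGFP+mIgG mice the counts were 47, 507 and, without the 4 libraries, 2 (full fit 5). There Ifit3 turned to -0.069, Usp18 to -0.20, Ifitm3 to 0.085 and Ifi27 to 0.044 without the 4 libraries, and Bst2 to -0.075 and Oasl2 to 0.13 with limma-voom. In mVEGF-C+mIgG against eGFP+mIgG mice 5 members passed with limma-voom, and all genes numbered 20 with DESeq2, 937 with limma-voom, 2 with only the groups compared and 2 without the 4 libraries (full fit 6). In mVEGF-C+mAdu against eGFP+mAdu mice 1 member passed with DESeq2, 5 with limma-voom and 1 with only the groups compared, and all genes numbered 119, 970, 62 and, without the 4 libraries, 0 (full fit 7). In mVEGF-C+mAdu against eGFP+mIgG mice 2 members passed with DESeq2, 5 with limma-voom, 3 with only the groups compared and 0 without the 4 libraries. All genes there numbered 2660 with limma-voom, 610 with only the groups compared and 2 without the 4 libraries (full fit 324), and Bst2 turned to 0.0012. The interaction passed in 2 members with DESeq2 and 5 with limma-voom, and in 8, 220 and, without the 4 libraries, 0 of all genes (full fit 2). For mAdu averaged over vectors 2 members passed with DESeq2, 8 with limma-voom and 0 without the 4 libraries, all genes numbered 237, 1681 and 1 (full fit 85), and Bst2 turned to 0.015. For mVEGF-C averaged over antibodies 1 member passed with limma-voom, and all genes numbered 155, 1789 and 0 (full fit 58). Usp18 turned there to 0.014, Bst2 to 0.035 and Oasl2 to -0.00086 with limma-voom, and Iigp1 to -0.017 and Oasl2 to -0.0037 without the 4 libraries.

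With 1 library left out, members that passed ranged 0 to 7 in mVEGF-C+mAdu against mVEGF-C+mIgG mice, 0 to 3 in mVEGF-C+mIgG against eGFP+mIgG, 0 to 2 in mVEGF-C+mAdu against eGFP+mAdu, 0 to 2 in mVEGF-C+mAdu against eGFP+mIgG, 0 to 5 for the interaction and 0 to 6 for mAdu averaged. All genes ranged 2 to 138, 1 to 52, 0 to 110, 12 to 594, 0 to 36 and 9 to 172 in that order, 4 to 35 in eGFP+mAdu against eGFP+mIgG and 4 to 253 for mVEGF-C averaged. Signs turned in eGFP+mAdu against eGFP+mIgG for Ifit3 (-0.046 to 0.11), Usp18 (-0.12 to 0.40), Ifitm3 (-0.089 to 0.052), Bst2 (-0.083 to 0.30), Oasl2 (-0.19 to 0.17) and Ifi27 (-0.082 to 0.043), and in mVEGF-C+mIgG against eGFP+mIgG for Ifitm3 (-0.22 to 0.10). They turned for mVEGF-C averaged in Ifit1 (-0.0096 to 0.27), Ifit3 (-0.068 to 0.11), Usp18 (-0.15 to 0.11), Iigp1 (-0.036 to 0.13), Bst2 (-0.066 to 0.12) and Oasl2 (-0.16 to 0.12), and in mVEGF-C+mAdu against mVEGF-C+mIgG for P2ry12 (-0.054 to 0.012). The cause was not tested, beyond fewer libraries entering some fits.

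No paired analysis was possible because the groups share no replicate numbers. With 3 mice a group and as few as 10 reads for Usp18 in a library, precision limits the lowest genes most.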
